A study of Mus musculus with 12 samples.

Results

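The comparison set regulatory T cells (Tregs) that lack Il10 directly against Tregs that lack Ebi3, and it used 6 of the 12 arrays of the series. The 3 arrays labelled Il10 –/– Treg (Il10_KO here) and the 3 labelled Ebi3 –/– Treg (Ebi3_KO here) were chosen by their titles and paired by replicate number. The double knockout of both genes (DKO), with 3 arrays, lent its spread to the test and is shown beside some results. The wild-type arrays entered only alternatives. These were the fits on 12 arrays, as part of the estimate of spread, and quantile normalization, which was run over all 12 arrays. In all groups the cells were T cells purified by flow cytometry, taken fresh from mice and left untreated, and RNA was hybridised to Affymetrix mouse arrays. Replicate numbers coincide with the 3 labelled batches, each with every genotype once. The labels give no strain, allele, age or sex, and do not say whether replicates came from separate animals, so p-values measure only the spread between these arrays.

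IL-10 is a secreted cytokine with which Tregs and other cells restrain inflammation, acting through a receptor that signals by STAT3. Ebi3 encodes a secreted chain that pairs with others: with p28 it forms IL-27, and with p35, the product of Il12a, it forms IL-35, a cytokine linked to Treg suppression. In the mouse, Il10 lies on chromosome 1 and Ebi3 on chromosome 17. The comparison addresses how the loss of either cytokine gene differs from the loss of the other in the same kind of cell.

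Values are MAS5 signals, the Affymetrix estimate of brightness for a probe set (a group of probes for 1 transcript), and differences are Il10_KO minus Ebi3_KO on the log2(signal + 20) scale, with the standard error (SE) of a limma fit that has batch as a factor. A probe set was called when its Benjamini-Hochberg adjusted p was under 0.05 over all 27620 tested probe sets. Median signals on the 6 arrays lay between 59.3 and 87.5, and arrays of the same number deviated together, with correlations between 0.454 and 0.718. Arrays of batch 3 stood apart in both genotypes. Xist, transcribed from the inactive X chromosome, had signals of 100.5, 115.2 and 6440.8 on the Il10_KO arrays of batches 1, 2 and 3, against 102.1, 41.6 and 4567.1 on the Ebi3_KO arrays. Eif2s3y, a gene of the Y chromosome, had signals of 3834.7, 3246.7 and 1.9 on the Il10_KO arrays, against 2984.7, 3074.6 and 9.7 on the Ebi3_KO arrays. The batch 3 arrays were thus high in Xist and low in the Y-linked gene in both genotypes alike.

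The Treg identity of the samples was checked first. Foxp3, the transcription factor that defines Tregs, had signals of 6090.3, 5900.4 and 5300.8 in Il10_KO, against 6214.8, 7390.2 and 6301.1 in Ebi3_KO. It was high on all 6 arrays, with a difference of -0.20 ± 0.13 (SE, adjusted p = 0.831, limma). Il2ra, the alpha chain of the IL-2 receptor, had signals of 4076.1, 3308.8 and 3811.4 in Il10_KO, against 4554.7, 4077.2 and 3358.6 in Ebi3_KO. Ctla4, an inhibitory receptor of Tregs, had signals of 19658.4, 20882.2 and 10036.1 in Il10_KO, against 18009.1, 25039.3 and 10480.9 in Ebi3_KO. For Cd4, the co-receptor of helper lineage cells, they were 4115.4, 3151.5 and 3270.2 in Il10_KO, against 3336.2, 2573.7 and 2858.4 in Ebi3_KO. The Treg markers were present on every array, and adjusted p-values for Il2ra, Ctla4 and Cd4 were 0.927, 0.931 and 0.796.

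Ebi3, Ap1s3 and Ctse were higher in Il10_KO than in Ebi3_KO Tregs, and Thap4 and D2hgdh were lower, together with a pair of probe sets that carry no gene name. Those 7 probe sets, 3 higher and 4 lower, are all that were called of 27620, which is 0.0253% (0.0109% higher and 0.0145% lower). Counting 1 probe set per gene, 5 of 12607 genes were called, or 0.0397%, with 3 higher (0.0238%) and 2 lower (0.0159%). At an unadjusted p under 0.05, 1169 probe sets (4.23%) were higher in Il10_KO and 611 (2.21%) were lower. Groups did not overlap for 661 probe sets higher (2.39%) and 461 lower (1.67%) in Il10_KO, and differences above 0 made up 53.9% of all. When only the 6 single-knockout arrays were fitted, 13 probe sets (0.0471%) were called, 6 of them shared with the 7. With no batch term 3 were called, and those were Ebi3, Ap1s3 and Ctse.

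**Figure D1:**
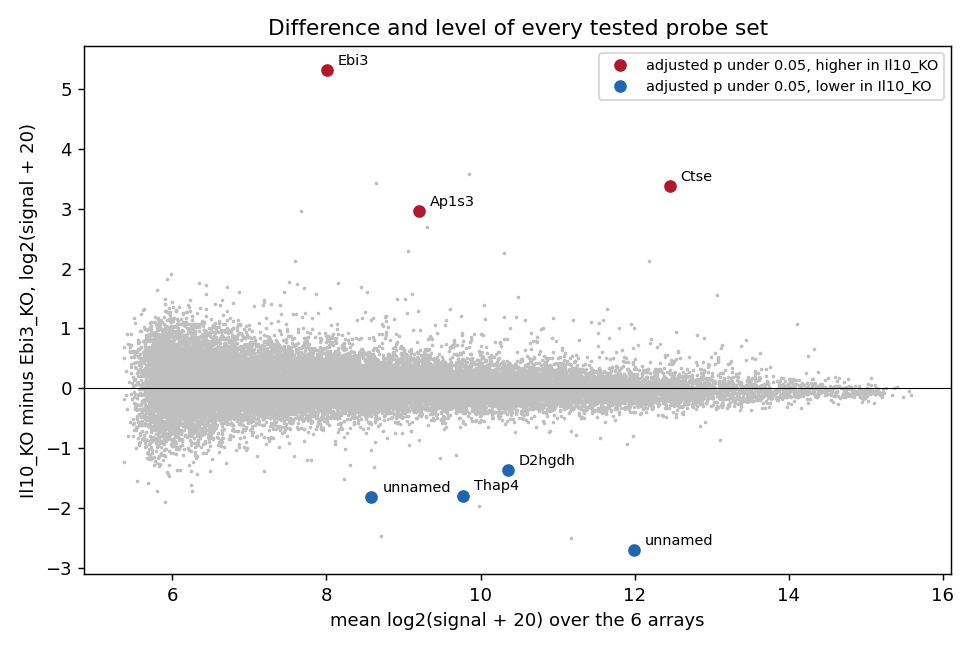
Difference of Il10_KO minus Ebi3_KO on the log2(signal + 20) scale (vertical axis) against the mean level over the 6 arrays (horizontal axis), 1 point for each of the 27620 tested probe sets. Red points are the 3 called higher and blue points the 4 called lower in Il10_KO, and grey points did not pass.

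The targeted genes themselves gave unlike readings. Ebi3 had signals of 1062.5, 2057.3 and 1899.6 in Il10_KO, against 3.0, 29.4 and 39.5 in Ebi3_KO. The transcript was clearly measured on every Il10_KO array, while the Ebi3_KO signals lay at or near the dim end of their arrays, where the 40th percentile was 37.3 to 51.7. Its mean was 1673.1 ± 534.7 in Il10_KO and 24.0 ± 18.8 in Ebi3_KO (SD, n = 3 each). The log2 difference was 5.32 ± 0.28 (SE, limma, adjusted p = 1.02e-05). Because the Ebi3_KO signals are so low, the size depends on the added constant: it was 6.56 with an offset of 1 and 3.80 with an offset of 100. For Ebi3 the knockout label and the array reading go together.

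Il10 had signals of 2038.2, 1976.0 and 1027.8 in Il10_KO, against 1401.1, 2384.6 and 574.4 in Ebi3_KO. The groups overlapped, and no loss of signal was seen on the arrays labelled as the Il10 knockout. The difference was 0.36 ± 0.19 (SE, adjusted p = 0.8, limma). The labels name no allele, and whether the Il10 probe set lies outside the part deleted is not known here, so its signal is no check on the label, nor on whether IL-10 was made.

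Ctse encodes cathepsin E, an aspartic protease of the endosomal system. Its signals were 15418.1, 20750.1 and 18351.5 in Il10_KO, against 1035.3, 3159.3 and 1553.9 in Ebi3_KO. All Il10_KO arrays stood far above all Ebi3_KO arrays, with means of 18173.2 ± 2670.5 and 1916.2 ± 1107.4 (SD, n = 3 each). The difference was 3.37 ± 0.20 (SE, adjusted p = 1.24e-05, limma), and within batches 1, 2 and 3 it was 3.87, 2.71 and 3.55. A second Ctse probe set was dim and ran the other way, with signals of 62.7, 2.8 and 41.0 in Il10_KO against 222.7, 105.0 and 53.6 in Ebi3_KO. That opposite difference of -1.43 did not pass (adjusted p = 0.624, limma).

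Ap1s3 encodes a small sigma subunit of the clathrin adaptor AP-1, which sorts cargo between the trans-Golgi network and endosomes. Its signals were 1324.1, 1769.0 and 1841.6 in Il10_KO, against 165.9, 248.0 and 169.9 in Ebi3_KO. The groups were widely separated, with a difference of 2.96 ± 0.18 (SE, adjusted p = 1.24e-05, limma). Within batches 1, 2 and 3 it was 2.85, 2.74 and 3.29. The array holds 1 tested probe set for Ap1s3.

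Thap4 encodes a protein with a THAP zinc finger and a heme-binding domain. The called probe set had signals of 431.8, 486.8 and 433.9 in Il10_KO, against 1154.4, 2567.4 and 1418.3 in Ebi3_KO. The Il10_KO arrays were close to one another and all lower, with a difference of -1.80 ± 0.20 (SE, adjusted p = 0.00769, limma). Its name ends in x_at, the suffix Affymetrix uses where probes may also match other transcripts. The 3 other Thap4 probe sets differed by -0.19, 0.01 and -0.06 and were not called, so 1 of 4 probe sets was lower by the test.

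D2hgdh encodes the mitochondrial enzyme that oxidises D-2-hydroxyglutarate to 2-oxoglutarate. Its called probe set had signals of 665.4, 981.4 and 778.1 in Il10_KO, against 1782.6, 1934.2 and 2646.1 in Ebi3_KO. All Il10_KO arrays were lower, by -1.37 ± 0.18 (SE, adjusted p = 0.0273, limma). The second D2hgdh probe set, with a difference of -0.22, did not pass (adjusted p = 0.888). Of the alternatives, Thap4 lost its call without the batch term (adjusted p = 0.898), without the trend in the variance (0.365), and without Il10_KO replicate 2 (0.0695), Il10_KO replicate 3 (0.082) or batch 3 (0.0705). D2hgdh lost its call without the batch term (adjusted p = 1), without the trend (0.498) and in 7 of the 9 fits that left out an array or a batch (0.0607 to 0.318).

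The called probe sets without a gene name were both lower in Il10_KO. The brighter of them had signals of 2178.9, 1297.3 and 1381.2 in Il10_KO, against 15586.7, 15155.1 and 4759.9 in Ebi3_KO. Its difference was -2.71 (adjusted p = 0.0249, limma). The dimmer had signals of 228.4, 170.5 and 160.7 in Il10_KO, against 907.6, 387.3 and 973.3 in Ebi3_KO. Its difference was -1.82 (adjusted p = 0.0499, limma), just inside the threshold.

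**Figure D2:**
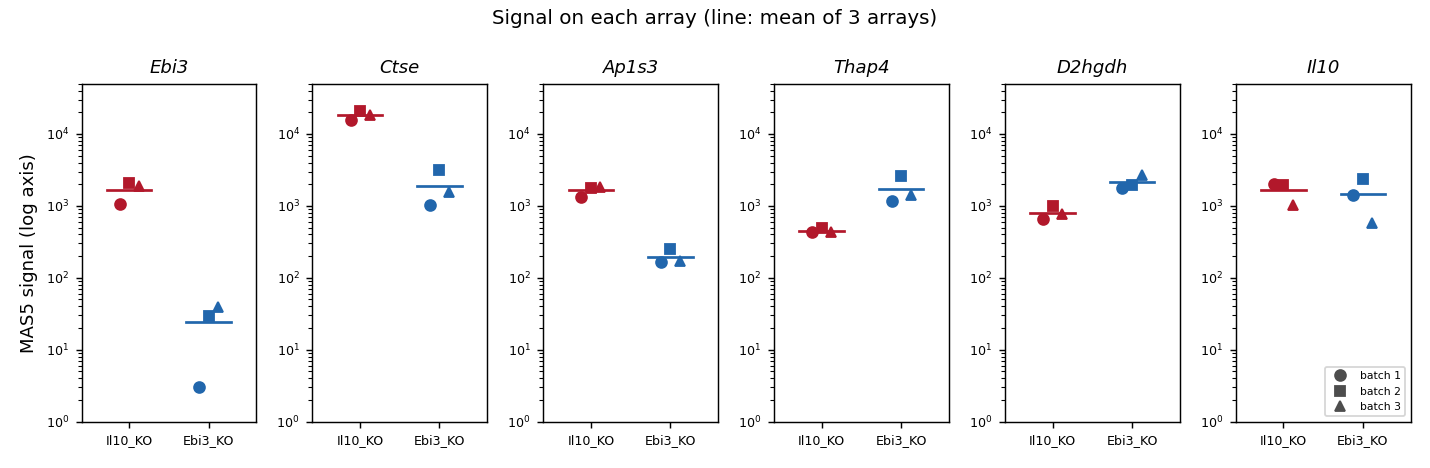
MAS5 signal (log axis) on each of the 6 arrays for the 5 called genes and Il10, with Il10_KO left and Ebi3_KO right in each panel, a symbol for each batch and a line at the mean of 3 arrays. Ebi3, Ctse and Ap1s3 lie higher and Thap4 and D2hgdh lower in Il10_KO without overlap, whereas the Il10 signals overlap.

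The windows around the start sites of 4 of the called genes are printed because these genes separate the genotypes. Each runs from 250 bases before to 50 bases after a RefSeq start, reads 5′ to 3′ along the gene, and is from build GRCm38.p6. Both strands were searched for TTCNNNGAA, the core that STAT proteins bind downstream of cytokine receptors, and for TGANTCA. The latter is the core bound by the transcription factor AP-1, which is not the clathrin adaptor of the same name. Matches are in capitals. Thap4 has a pair of annotated starts.
Ap1s3, chr1:79671923-79672222, minus strand: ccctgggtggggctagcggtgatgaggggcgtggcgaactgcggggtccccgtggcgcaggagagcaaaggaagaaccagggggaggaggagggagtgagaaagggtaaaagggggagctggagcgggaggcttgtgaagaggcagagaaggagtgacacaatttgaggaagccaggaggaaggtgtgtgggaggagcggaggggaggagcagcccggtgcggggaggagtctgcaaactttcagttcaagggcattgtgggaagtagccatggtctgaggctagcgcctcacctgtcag
D2hgdh, chr1:93824990-93825289, plus strand: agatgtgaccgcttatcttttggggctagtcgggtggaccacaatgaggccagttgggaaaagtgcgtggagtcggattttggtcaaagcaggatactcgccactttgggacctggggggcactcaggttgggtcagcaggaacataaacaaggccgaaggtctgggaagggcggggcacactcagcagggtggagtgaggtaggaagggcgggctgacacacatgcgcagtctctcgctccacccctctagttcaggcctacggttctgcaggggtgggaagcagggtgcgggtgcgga
Thap4, first start, chr1:93754789-93755088, minus strand: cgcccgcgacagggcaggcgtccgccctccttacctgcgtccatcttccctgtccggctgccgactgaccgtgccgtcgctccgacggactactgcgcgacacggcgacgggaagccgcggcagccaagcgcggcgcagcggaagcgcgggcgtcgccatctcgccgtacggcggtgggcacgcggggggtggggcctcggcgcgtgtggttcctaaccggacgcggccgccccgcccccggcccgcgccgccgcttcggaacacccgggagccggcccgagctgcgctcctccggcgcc
Thap4, second start, chr1:93731877-93732176, minus strand: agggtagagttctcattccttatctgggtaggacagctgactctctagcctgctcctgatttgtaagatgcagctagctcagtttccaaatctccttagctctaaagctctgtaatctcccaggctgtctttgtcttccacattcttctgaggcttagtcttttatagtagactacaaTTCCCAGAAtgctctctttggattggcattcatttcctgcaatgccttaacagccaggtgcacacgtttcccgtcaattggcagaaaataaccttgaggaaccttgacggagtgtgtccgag
Ebi3, chr17:55952373-55952672, plus strand: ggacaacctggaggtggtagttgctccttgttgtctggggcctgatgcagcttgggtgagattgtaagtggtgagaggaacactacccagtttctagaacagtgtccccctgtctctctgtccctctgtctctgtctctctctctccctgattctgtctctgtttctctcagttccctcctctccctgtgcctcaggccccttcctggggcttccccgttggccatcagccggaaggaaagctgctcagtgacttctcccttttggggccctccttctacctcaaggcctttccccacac
The only match was a single TTCNNNGAA at the second Thap4 start, and TGANTCA was found in none of these windows. Of 32851 mouse promoters of the same length, 8.3% held TTCNNNGAA and 7.81% held TGANTCA. A match describes letters alone.

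Of the called genes, 4 of 5 lay on chromosome 1, where Il10 lies, and the other was Ebi3 itself. Chromosome 1 held 718 of the 12607 tested genes, or 5.7%. At an unadjusted p under 0.001 there were 10 genes of 718 on chromosome 1 (1.39%), 3 of 627 on chromosome 17 (0.478%), and 17 of 11262 elsewhere (0.151%). These are counts along chromosomes, with no test. In the order of tested protein-coding genes, Ctse was 8 genes from Il10, and D2hgdh, Thap4 and Ap1s3 lay 55, 59 and 129 genes away on the other side. Of the 24 genes of smallest p, 12 in each direction, 11 lay on chromosome 1. Gin1, among these 11, came into the test only through the Ebi3_KO arrays, and its brighter probe set differed by -0.25.

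Of the 8 tested genes nearest to Il10 on each side, Ctse was the one called. Ikbke, a kinase of innate immune signalling, differed by -0.39 ± 0.15 (SE, adjusted p = 0.751, limma), and Fam72a by 0.60 ± 0.27 (adjusted p = 0.77). Mapkapk2, a kinase downstream of p38 and the next tested gene to Il10, differed by 0.21 ± 0.15 (adjusted p = 0.84). Among 50 tested genes on each side of Il10, 9 were higher and 2 lower without overlap, or 11%, against 2.74% of all genes higher and 1.69% lower. Among 50 on each side of Ebi3, 4 were higher and 2 lower without overlap, or 6%.

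**Figure D3:**
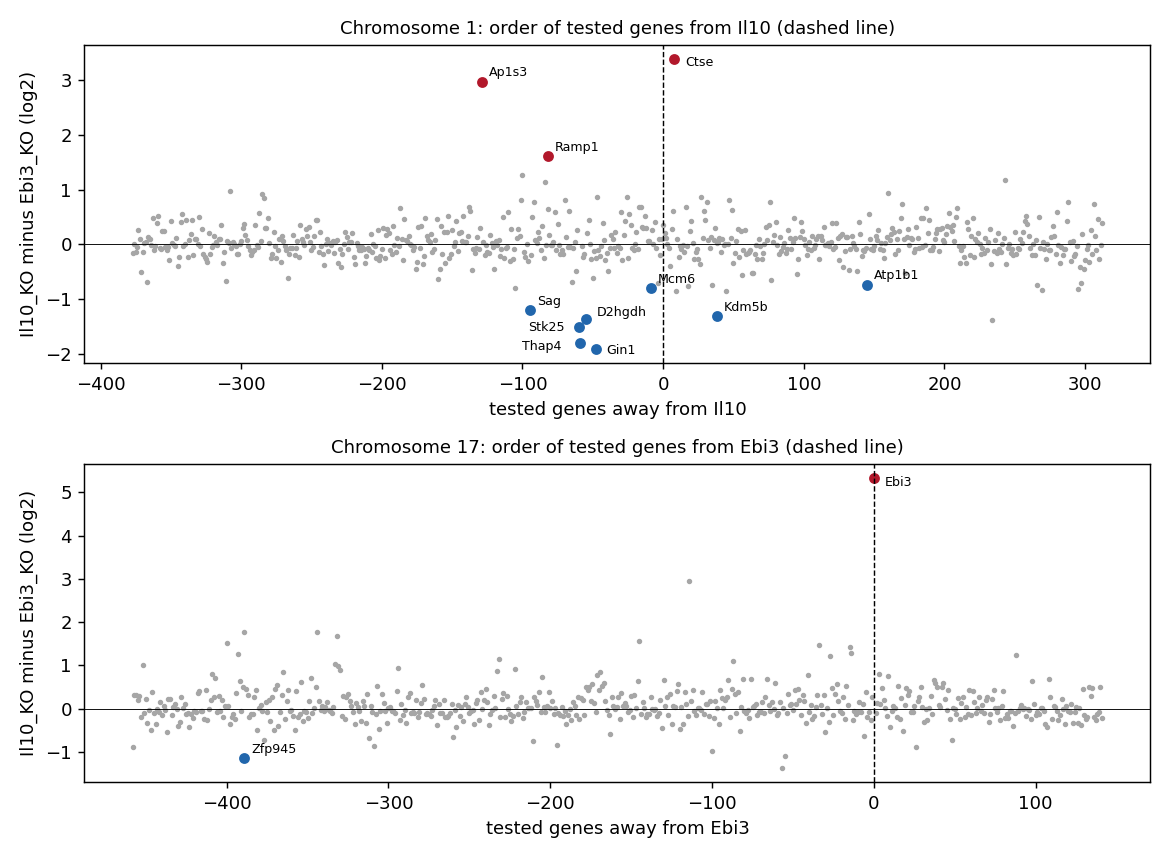
Difference of Il10_KO minus Ebi3_KO (log2, vertical axis) against the order of tested protein-coding genes, counted from Il10 on chromosome 1 (upper panel) and from Ebi3 on chromosome 17 (lower panel). Named points are those of the 24 genes of smallest p on each chromosome, red where higher and blue where lower in Il10_KO. On chromosome 1 they lie between 129 tested genes before and 145 after Il10, 8 before it and 3 after.

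On chromosome 17, Ebi3_KO replicate 3 stood apart from the other Ebi3_KO arrays. Without that array 26 probe sets (0.0941%) were called, with 19 named genes among them, and 10 of the 19 lay on chromosome 17, against 1 of 5 with it. Chromosome 17 held 4.97% of the tested genes. In that unbalanced fit the DKO arrays also entered the difference, through the batch terms. The 19 genes were picked after their values were seen. That the left-out array differs from its group for most of them follows from how they were picked. Ddr1, a collagen receptor, had signals of 629.0, 340.1 and 756.9 in Il10_KO and 23.8, 64.0 and 105.5 in DKO, against 1.3, 5.7 and 689.2 in Ebi3_KO. Baiap3 had signals of 678.3, 749.5 and 434.5 in Il10_KO and 67.9, 70.8 and 27.9 in DKO, against 136.7, 79.2 and 450.7 in Ebi3_KO. H2-M3, a class Ib MHC molecule that presents formylated peptides, had 3765.0, 4296.0 and 4935.6 in Il10_KO and 1316.1, 1266.0 and 2545.8 in DKO, against 1672.0, 1037.3 and 4643.5 in Ebi3_KO. In these genes Ebi3_KO replicates 1 and 2 were low with the DKO arrays, while Ebi3_KO replicate 3 was at the Il10_KO level.

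The same order held for Eme2, Unc5cl, Zfp52 and Gtpbp2, also on chromosome 17. Zfp52, a zinc finger gene, had signals of 2908.4, 1898.0 and 2544.1 in Il10_KO and 628.7, 347.1 and 363.3 in DKO, against 716.2, 244.6 and 3122.7 in Ebi3_KO. Kat2b, a histone acetyltransferase 6 tested genes from Ebi3, ran the other way, with 5944.8, 6690.9 and 5079.4 in Il10_KO and 9816.0, 11683.8 and 9741.0 in DKO, against 10743.8, 11695.6 and 6063.3 in Ebi3_KO. Ebi3_KO replicate 3 was nearer to the Il10_KO mean than to the other Ebi3_KO arrays in 8 of the 10 genes, the exceptions being Ebi3 and Hspa1a. Over all 19 genes this was so in 12, with Camk2b, Ighm, Naip5 and Naip6 those off chromosome 17. Ebi3 was at 39.5 on that array, so it was low there too. The 10 genes ranged from Zfp52, 400 tested genes before Ebi3, to Ebi3 itself. Off the chromosome, Naip5 of chromosome 13 had signals of 1098.1, 1567.3 and 919.1 in Il10_KO and 188.9, 1328.3 and 649.9 in DKO, against 79.2, 117.7 and 1014.8 in Ebi3_KO. The source of the difference between the Ebi3_KO arrays was not tested.

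Further genes of small p did not pass, and their values are given as they stand. Il17re, a receptor chain for IL-17C, had signals of 488.8, 671.6 and 334.4 in Il10_KO, against 180.5, 334.7 and 142.5 in Ebi3_KO. It was above Ebi3_KO in every batch, by 1.14 ± 0.18 (SE, adjusted p = 0.0977, limma), and a second probe set gave 0.53. Ccl5, a chemokine for T cells and monocytes, had 1328.2, 1836.4 and 4830.0 in Il10_KO, against 669.9, 1221.1 and 2362.4 in Ebi3_KO. Its difference was 0.86 ± 0.14 (adjusted p = 0.135). Kit, the receptor of stem cell factor, had 431.3, 433.1 and 313.1 in Il10_KO, against 204.9, 198.2 and 130.1 in Ebi3_KO, with a difference of 1.07 (adjusted p = 0.214), while its second probe set ran the other way at -0.83. Ramp1 of chromosome 1, a subunit of the CGRP receptor, had 238.6, 306.5 and 314.6 in Il10_KO, against 65.5, 135.0 and 55.4 in Ebi3_KO, a difference of 1.61 (adjusted p = 0.175). A brighter Ramp1 probe set gave 0.64, and another ran the other way at -0.66.

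Larger but less even differences were found for Mid1 and Ighm. Mid1, an X-linked ubiquitin ligase that binds microtubules, had signals of 9956.1, 1631.2 and 1958.9 in Il10_KO, against 560.7, 104.3 and 240.7 in Ebi3_KO. The difference was 3.59 ± 0.65 (SE, adjusted p = 0.193, limma), and Mid1 was called when the 6 arrays were fitted alone (adjusted p = 0.000114). Its second probe set gave 0.59 (adjusted p = 0.827). Ighm, the heavy chain of IgM, had a probe set at 467.3, 2332.7 and 1981.2 in Il10_KO, against 38.1, 48.1 and 441.0 in Ebi3_KO, a difference of 3.43 (adjusted p = 0.135, and 0.0308 when the 6 arrays were fitted alone). The brightest Ighm probe set had 15951.3, 17514.4 and 20374.1 in Il10_KO, against 14635.8, 19829.7 and 17084.1 in Ebi3_KO, a difference of 0.07 (adjusted p = 0.949). A second bright probe set gave 0.35 (adjusted p = 0.758, above Ebi3_KO in every batch), and 4 of the 6 tested Ighm probe sets were above 0. Ighg3, Tmem176a and 1600014C10Rik complete the higher 12, with differences of 1.74, 0.81 and 1.18. None of them passed (adjusted p = 0.177, 0.238 and 0.238, limma). All tested probe sets of these genes were above 0, those of Tmem176a at 0.81, 0.72 and 0.52. Of the 24 genes of smallest p, 18 had several tested probe sets, and in 10 of the 18 all ran the same way.

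On the lower side, Mcm6 of chromosome 1, a subunit of the replicative helicase, had signals of 2166.3, 3536.6 and 3633.7 in Il10_KO, against 3328.3, 6845.3 and 6481.7 in Ebi3_KO. The difference was -0.80 ± 0.14 (SE, adjusted p = 0.175, limma), and the other tested Mcm6 probe set gave -0.83. Stk25, a serine/threonine kinase, had 149.8, 222.0 and 116.8 in Il10_KO, against 748.3, 409.5 and 374.7 in Ebi3_KO, a difference of -1.51 (adjusted p = 0.135). Kdm5b, a histone H3K4 demethylase, had 251.9, 263.6 and 182.6 in Il10_KO, against 541.6, 1000.4 and 395.2 in Ebi3_KO, while its brightest probe set differed by 0.02. Sag, the retinal arrestin, differed by -1.20 (adjusted p = 0.255) and Gin1 by -1.90 (adjusted p = 0.365), with Gin1 signals of 4.4, 5.5 and 28.8 in Il10_KO, against 74.7, 77.1 and 150.0 in Ebi3_KO. At such low signals the Gin1 size depends on the offset, being -3.25 with 1 and -0.82 with 100, and the brighter Gin1 probe set gave -0.25. Polr3k, Camk2b, Zfp945, Atp1b1 and Cpm complete the lower 12, with differences between -2.47 and -0.73, and none of these 5 passed. The brightest Zfp945 probe set ran the other way at 1.76 (adjusted p = 0.747, limma), and another gave 0.11. The other tested Polr3k probe sets gave -0.14, 0.06 and -0.02.

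Beside the single knockouts, the DKO arrays were read as a description, since they share in the estimate of spread. The DKO mean was nearer to Il10_KO in 19 of the 24 genes and nearer to Ebi3_KO in 5. Each gene was read from its probe set of smallest p, and the same share over all tested genes was not counted. On chromosome 1 the DKO mean was nearer to Il10_KO in 10 of 11 genes, the exception being Atp1b1. Gin1, among the 11, came into the test only through the Ebi3_KO arrays. On chromosome 17 both genes, Ebi3 and Zfp945, were nearer to Ebi3_KO. Ebi3, counted among the 5, is knocked out in DKO and in Ebi3_KO alike, so its place followed from the genotypes. On other chromosomes 9 of 11 were nearer to Il10_KO. Ctse had DKO signals of 13939.1, 18621.9 and 19483.3, and Ap1s3 had 1680.6, 1818.1 and 1364.9, both at the Il10_KO level. Thap4 in DKO was at 405.9, 476.0 and 381.2, also at the Il10_KO level.

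**Figure D4:**
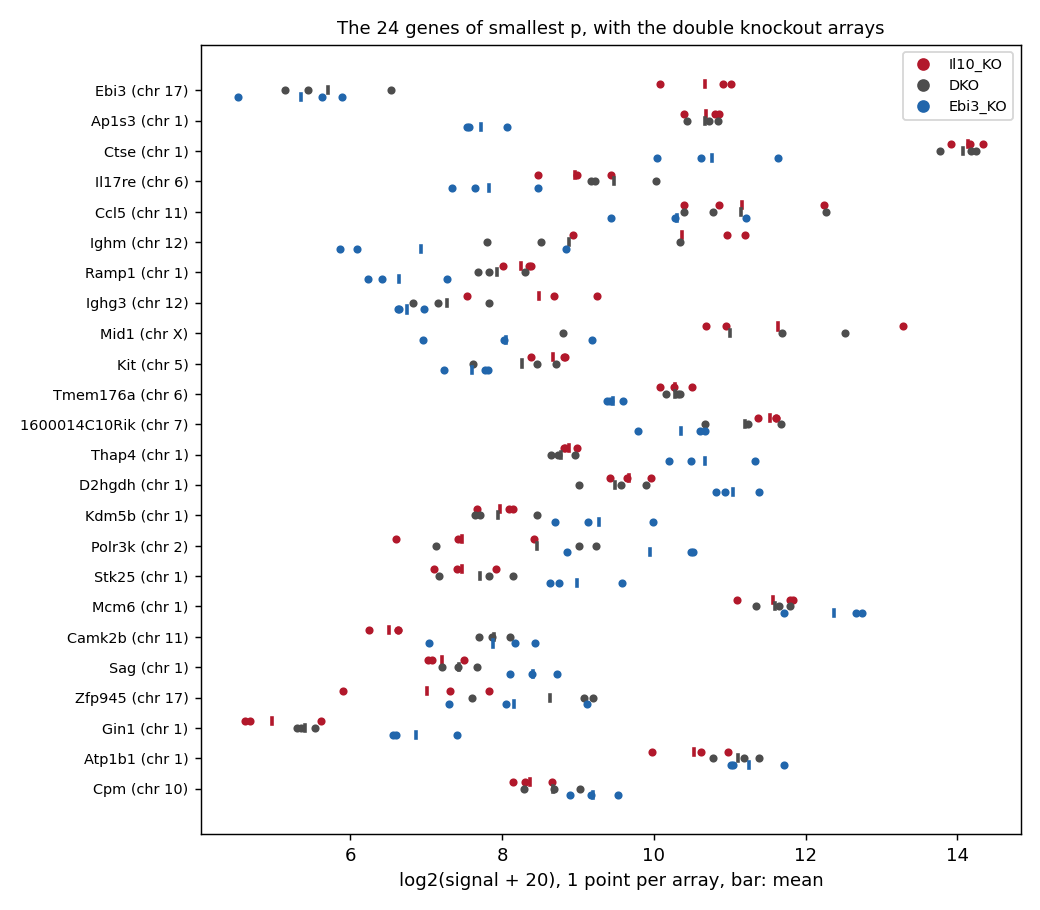
Level of the 24 genes of smallest p on the log2(signal + 20) scale (horizontal axis), 1 point per array and a bar at each mean, for Il10_KO (red), DKO (grey) and Ebi3_KO (blue), with the chromosome beside each name. The DKO points lie with Il10_KO for Ctse, Ap1s3 and Thap4, and with Ebi3_KO for Ebi3.

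The list of receptors and signalling was centred near 0. Of 14 tested genes for receptors and signalling of IL-10, IL-27 and IL-35, 7 were above and 7 below 0, with a median of 0.01 against 0.02 over all genes, and 0 were called (limma), with 2 higher at an unadjusted p under 0.05. Socs3, a feedback inhibitor induced by STAT3, had signals of 14414.2, 12359.0 and 6153.8 in Il10_KO, against 11478.3, 7715.6 and 4397.2 in Ebi3_KO, a difference of 0.50 ± 0.11 (SE, adjusted p = 0.444). It was above Ebi3_KO in each batch but did not pass. Il12a, which makes IL-35 together with Ebi3, was dim, with 67.1, 79.2 and 66.8 in Il10_KO against 74.8, 6.7 and 85.0 in Ebi3_KO (adjusted p = 0.885). In the Treg identity list 7 of 15 genes were above 0, with a median of -0.01, and in the list of Treg suppressive effectors 7 of 15, with a median of -0.10. Leaving out a batch moved the first between -0.06 and 0.10 and the second between -0.12 and 0.17. Of the suppressive effectors 0 were called (limma). At an unadjusted p under 0.05, 4 of them were higher and 1 lower, against 4.6% and 2.32% of all genes. Entpd1, the ectonucleotidase CD39, had 649.2, 552.5 and 775.5 in Il10_KO, against 481.8, 293.1 and 547.7 in Ebi3_KO (0.59, adjusted p = 0.645).

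The families of the called genes were read as lists. Of 21 tested clathrin adaptor subunits 10 were above 0, with a median of -0.0048, and Ap1s3 was the only one called. Ap1m1, the mu subunit of the same complex, had signals of 3993.0, 5922.1 and 4958.0 in Il10_KO, against 5248.0, 5676.7 and 7133.3 in Ebi3_KO (-0.28, adjusted p = 0.775, limma). Of 18 cathepsins and their inhibitors 15 were above 0, with a median of 0.16, within-batch medians of 0.13, -0.02 and 0.47, and Ctse the only one called. The median ran from 0.06 without batch 3 to 0.38 without batch 2. Cst7, cystatin F, differed by 0.52 (adjusted p = 0.733) and Ctsl, cathepsin L, by 0.41 (adjusted p = 0.768). Among 7 MCM helicase subunits 5 were below 0, with a median of -0.17 (-0.09 without batch 3) and 0 called (1 lower at an unadjusted p under 0.05). In the proliferation list 22 of 29 genes were below 0, with a median of -0.20 and within-batch medians of -0.02, -0.30 and -0.37. The median ran from -0.33 to -0.14 when a batch was left out, and 4 were lower at an unadjusted p under 0.05, against 2.32% of all genes. Mki67, a marker of cycling cells, had 1014.8, 1249.7 and 1454.2 in Il10_KO, against 1154.0, 2040.3 and 2237.1 in Ebi3_KO (-0.50, adjusted p = 0.764).

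In the list of MHC and antigen processing genes, 15 of 16 were above 0, with a median of 0.46 and within-batch medians of 0.23, 0.19 and 0.49. Without batch 3 the median was 0.23. None was called (limma), and 8 were higher at an unadjusted p under 0.05, against 4.6% of all genes. H2-M3 of chromosome 17, shown above to differ between the Ebi3_KO arrays, is among the list's genes. How many others of the list lie on that chromosome is not given here. The part of chromosome 17 in this list was not tested. Psmb8, a subunit of the immunoproteasome, had signals of 7686.6, 4646.9 and 8197.0 in Il10_KO, against 6584.5, 2706.3 and 5095.3 in Ebi3_KO (0.56, adjusted p = 0.484). Of 9 chemokine ligands 8 were above 0, with a median of 0.56 and none called, 4 being higher at an unadjusted p under 0.05. Ccl4 differed by 0.58 and Cxcl10 by 0.53. All 5 tested genes of the IL-1 and IL-18 receptor cluster on chromosome 1 were above 0, with a median of 0.49 that ran from 0.31 to 0.67 when a batch was left out. Il1r2, the decoy receptor of IL-1, had 1118.1, 1563.6 and 1267.1 in Il10_KO, against 428.1, 1291.4 and 569.2 in Ebi3_KO (0.91, adjusted p = 0.682).

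Of 10 type 17 genes 8 were above 0, with a median of 0.30, which ran from 0.19 to 0.29 when a batch was left out. Of 9 effector T cell cytokines 6 were above 0, with a median of 0.37 that was 0.03 without batch 1. None of these was called (limma). At an unadjusted p under 0.05, 3 type 17 genes and 2 cytokines were higher, against 4.6% of all genes. Ifng, interferon gamma, had signals of 2512.8, 3589.1 and 2048.0 in Il10_KO, against 1895.6, 1869.5 and 1351.2 in Ebi3_KO, without overlap (0.64, adjusted p = 0.747). The 29 interferon response genes had a median of 0.10 that changed sign between batches, at 0.20, 0.47 and -0.41. Of 16 heat shock genes 11 were above 0, with a median of 0.29 that was 0.06 without batch 2. Hspa1a, an inducible HSP70 of chromosome 17, had 22014.4, 19748.4 and 7307.0 in Il10_KO, against 7839.6, 3018.2 and 5182.0 in Ebi3_KO (1.56, adjusted p = 0.275). Its adjusted p was 0.0062 without Ebi3_KO replicate 3. Over all 12607 genes 52.4% were above 0.

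Markers of other cells were read beside these lists. Those of CD8 T and NK cells, 14 tested, were all above 0, with a median of 0.57 and summed signals of 3770.1, 3588.3 and 13290.3 in Il10_KO, against 3076.3, 3074.6 and 7049.2 in Ebi3_KO. All 8 tested B cell markers were above 0, with a median of 0.54 and sums of 6403.9, 1955.2 and 11121.2 in Il10_KO, against 6185.0, 1676.3 and 3629.9 in Ebi3_KO. Without batch 3 the median was 0.24 for the CD8 T and NK cell markers and -0.08 for the B cell markers. That of the monocyte and macrophage markers, 0.20 with batch 3, was -0.13 without it. The arrays of batch 3 carried most of the signal for myeloid cells in both genotypes. Sums over 8 monocyte and macrophage markers were 7208.9, 5674.7 and 56074.1 in Il10_KO, against 6335.6, 7259.8 and 31706.8 in Ebi3_KO. Over 8 neutrophil markers, of which 6 were above 0, they were 3127.7, 1649.7 and 12566.6 in Il10_KO, against 1275.0, 1305.2 and 5209.0 in Ebi3_KO. None of the tested markers in these lists was called (limma). Higher at an unadjusted p under 0.05 were 5 markers of CD8 T and NK cells, 2 of B cells and 3 of neutrophils. So was 1 marker of monocytes and macrophages, against 4.6% of all genes. The part of these cells in the differences of the MHC, chemokine and cytokine lists was not tested, and in bulk samples fewer cells of a type and less RNA per cell cannot be told apart.

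**Figure D5:**
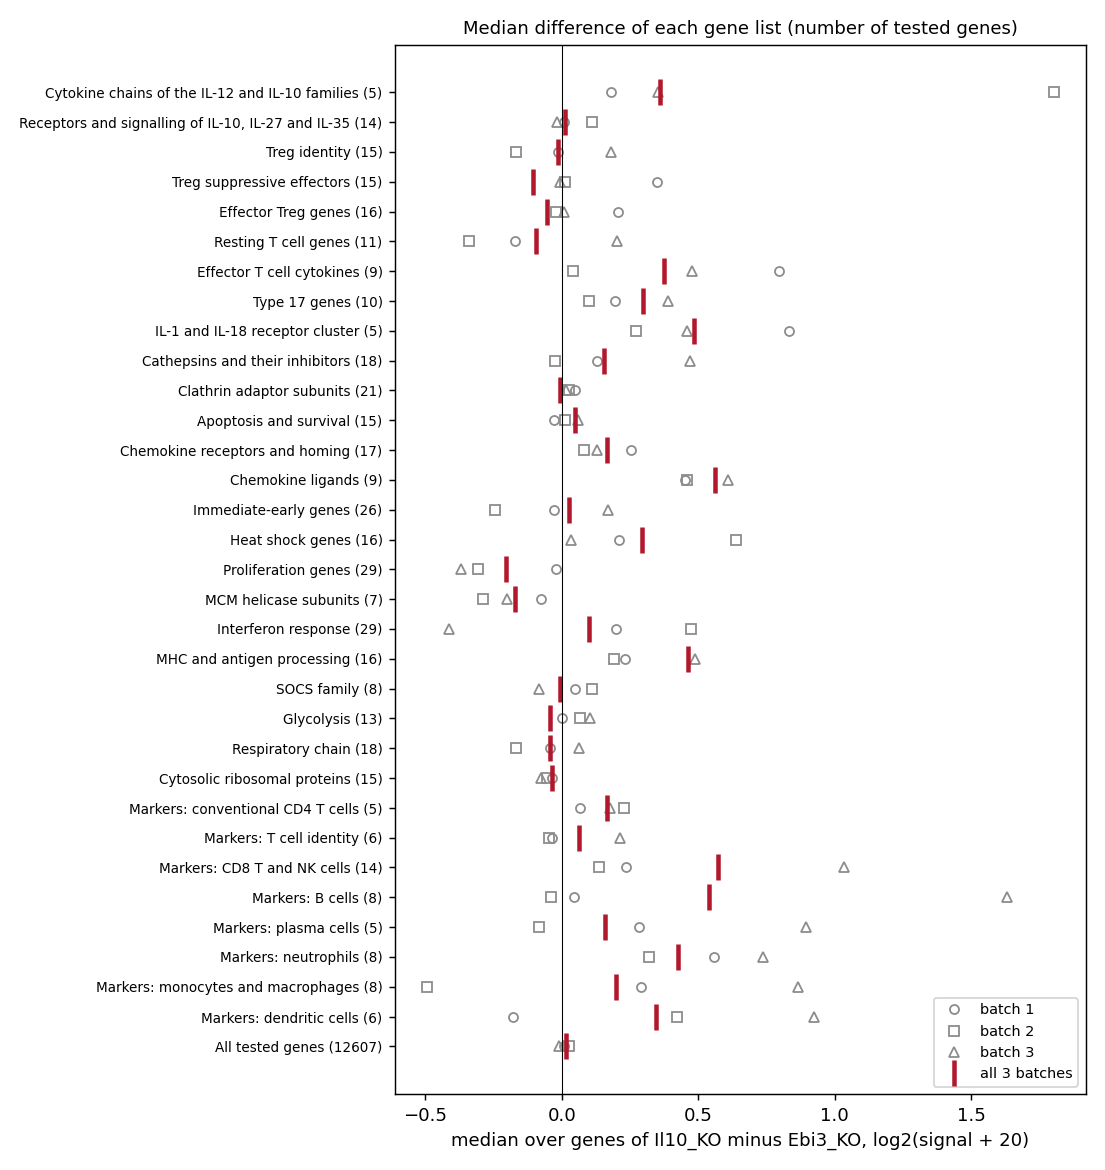
Median difference of Il10_KO minus Ebi3_KO over the tested genes of each list (log2 scale, horizontal axis), with the number of tested genes in brackets, open symbols for each batch and a red bar for all 3 batches. The MHC, chemokine ligand and CD8 T and NK cell lists lie above 0 in every batch. So do others, such as the neutrophil, type 17 and heat shock lists. The proliferation list lies below, at -0.02 in batch 1, as do the MCM helicase and ribosomal protein lists. The B cell median is high in batch 3 alone.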

How the data were processed

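RNA of the 12 samples was measured on Affymetrix mouse arrays, 3 per genotype, and the 6 arrays of the single knockouts carry the comparison. Per the labels' protocols, RNA was extracted with a Qiagen kit and 1 microgram was labelled in 2 cycles of cDNA synthesis. Software listed in the submitters' processing notes is MAS5 and Partek 6.4. The authors deposited the signals as the natural log of (signal + 20), a scale read from the values: signals under 200 came out as multiples of 0.1 within 0.005, and the trimmed mean was 499.8 on each of the 6 arrays. They were converted here to log2(signal + 20) with no further normalization.

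Control probe sets were left out of the 45101, and 27620 that reached their array's 40th percentile on at least 3 of the 6 arrays were tested. They cover 12607 genes, named from the platform annotation and GRCm38.p6 RefSeq identifiers, and tested probe sets with several symbols (653) or none (4172) stayed unnamed. The 9 knockout arrays were fitted with limma 3.58.1 in R 4.3.3 (lmFit, eBayes with trend) with batch as a factor. In this balanced fit the DKO arrays add only to the estimate of spread. In the fits that left out a single-knockout array they also entered the difference, through the batch terms. Adjustment (Benjamini-Hochberg) was over all 27620. With 3 pairs an exact paired permutation test cannot go below 0.25, so none is given. Alternatives were the arrays in the fit, no batch term, other offsets, quantile normalization, other filters, no variance trend, and leaving out each array or batch. A gene in a list is represented by its tested probe set of highest mean. The pairing comes from the labels, which name the number as a batch. Same-numbered arrays of the genotypes correlated at 0.718, 0.454 and 0.615 after group means were removed, others at -0.496 to -0.102. Removing the mean of 3 arrays makes the deviations within a group cancel, so the negative values are no separate evidence for the pairing.

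Genes are named by rule: the targeted genes, those called, the genes of smallest p up to 12 per direction, up to 4 of smallest p per list, 8 tested neighbours on each side of the targeted genes, and checks of cell identity. Not every list gene or neighbour drawn by this rule is named in the text. Genes named from the fit without Ebi3_KO replicate 3 were chosen after their values were seen. The comparison and the 34 gene lists, with 405 of 467 genes tested, were chosen with earlier results of these data known. The number of arrays limits the precision.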

Additional observations from a re-analysis of the deposited data

How the results depend on the processing

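Ebi3, Ap1s3 and Ctse were called in every one of the 19 alternative fits that tested them; Ebi3 was left untested by the filter on all 6 arrays. The number of called probe sets was 13 with the replicate block on the 6 arrays alone (8 higher), and 2 rather than 4 were lower with the replicate block on 12 arrays. It was 3, with 0 lower, without the replicate block on 9 and on 12 arrays and with eBayes without trend. Other offsets, quantile normalization and other filters gave 5 to 7. Leaving out an array or a batch gave 3 to 26 in all, 3 to 20 higher and 0 to 8 lower: 26 without Ebi3_KO replicate 3, 21 without batch 2, 13 without batch 3, 4 without Il10_KO replicate 2 or batch 1, and 3 without Il10_KO replicate 3. The cause was not tested.

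No called gene changed sign, and 37 of the 190 genes and probe sets followed did, none of them called and none over 0.663 in size. Over the fits that left out an array or a batch the differences ran, for Il2ra -0.245 to 0.0444, Ctla4 -0.162 to 0.0319, Il12a -0.198 to 1.06, Il20 -0.758 to 0.993, Rps2 -0.134 to 0.00571, Tnf -0.00818 to 0.453, Blk -0.0344 to 1.06, Ms4a1 -0.128 to 0.978, Cd247 -0.209 to 0.0343, Cd3e -0.11 to 0.267, Dapl1 -0.612 to 0.259, Il7r -0.279 to 0.0854. The ranges were, for Itgax -0.0472 to 0.828, Slc4a1 -0.141 to 0.762, Cd68 -0.0865 to 0.814, Lyz2 -0.0711 to 0.679, Igha -1 to 0.218, Sdc1 -0.0645 to 0.454, Eif2s3y -0.228 to 0.318, Capg -0.0366 to 0.325, Cd55 -0.43 to 0.282, Yod1 -0.214 to 0.111, Pigr -0.181 to 0.588, Fcmr -0.868 to 0.316. Further ranges were, for Dyrk3 -0.22 to 0.299, Eif2d -0.127 to 0.141, Rassf5 -0.138 to 0.0106, Satb1 -0.242 to 0.0987, Rab5a -0.00887 to 0.178, Sgo1 -0.156 to 0.701, Adgre4 -0.586 to 0.352, Zfp119a -0.186 to 0.0615, Yju2 -0.308 to 0.179, Shd -0.372 to 0.467, Ubxn6 -0.0488 to 0.347, Hdgfl2 -0.113 to 0.119. The range for Plin4 was -0.751 to 0.377. Eif2s3y was 0.107 with an offset of 100, Pigr -0.0242 with an offset of 1, and Cd55 -0.0774 and Hdgfl2 -0.0176 after quantile normalization. Thap4 lost its call in 6 fits and D2hgdh in 10. Of the called probe sets without a gene name, the dimmer lost its call in 14 fits and the brighter in 9. List medians moved by more than the spread of the batch medians in 56 of 679 cases. Signals under the 40th percentile limit what the dim genes can show.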
